A study of Mus musculus with 50 samples.

Results

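The genes described here are 10 members of the Notch pathway and of the arterial program of endothelium, taken by name from a table of single-cell expression. They are the receptors Notch1 and Notch4, the ligands Dll4 and Jag1, the nuclear factor Rbpj, the targets Hes1, Hey1 and Hey2, and the arterial genes Efnb2 and Gja4. All 10 had a row among the 11879 gene rows of the table, so none was skipped, and each was measured in all 50 cells. They were chosen by name and not by a threshold on a value, although earlier results of these data were known.

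Notch is a receptor that is activated by a ligand on a neighbouring cell. After binding, an ADAM protease and then gamma-secretase cut the receptor, and the freed intracellular domain enters the nucleus, binds the DNA-binding protein Rbpj and switches on genes of the Hes and Hey families, which encode repressors. In the embryo this signal sets arterial identity in endothelium, and it is required for the hemogenic endothelium of the aorta, the endothelial cells from which blood stem cells emerge.

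The cells were single mouse induced hemogenic endothelial cells, called iHECs (here iRunx1-iHECs). They came from embryonic stem cells of strain C57BL/6 that carry at the Rosa26 locus a Runx1 cassette switched on by doxycycline, selected as drug-resistant clones whose number is not given, and all 50 cells share that cassette and that treatment. Embryoid bodies were grown with BMP4 and VEGF, received doxycycline at 1 µg/mL and medium conditioned by cytokine-secreting cells from day 6, and at day 11 cells were sorted as CD31+CD41lowCD45-c-kit+CD201high. The sort came before co-culture on OP9-DL1, a stroma that carries the Notch ligand Dll1, so these cells had not yet been placed on it. The labels give 1 group, with no untreated cells and no embryonic counterpart, and name no separate cultures. The 50 cells were therefore treated as 1 sample, no test between conditions was possible, and every interval below covers counting error over cells only. Values are TPM, transcript abundances set to a common total per cell, which are scaled for gene length and so can be compared between genes, but keep no sequencing depth.

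Each cell title holds 2 numbers, and its first number (1 to 4, with 11, 14, 13 and 12 cells) is used below as the only division the labels offer, although its meaning is not stated. A gene was counted as present in a cell at a level above TPM 1. Cells had a median of 6223.5 genes above that level, from 4326 to 8615 in 49 cells, and 2400 in cell 4-6, which stood apart. The endothelial label held, since each of 15 pan-endothelial genes of a marker list passed TPM 1 in 25 cells or more and 9 of them in all 50, among them Egfl7, Esam and Icam2, with Cldn5 in 48. Of 8 mural and mesenchymal genes with a row, 0 reached 25 cells, their summed level ran from 0 to 84.2 TPM with a median of 0, Tagln was above TPM 1 in 4 cells and Pdgfra in 2, and Pdgfrb, Acta2 and Col3a1 in no cell. Of 11 blood genes with a row, 3 were above TPM 1 in 25 cells or more, with Itga2b, the gene of CD41, in 40, Tyrobp in 27, Sfpi1 in 24 and Coro1a in 21, while Ptprc, which encodes CD45, and Myb were in no cell. The induced gene Runx1 was above TPM 1 in 43 cells, with a range of 0.163 to 913 TPM around a median of 132 TPM.

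Promoter sequence is shown for 4 members named in the results below. Of the ligands among the members, Dll4 was more often present with Hey1 than Jag1 was. Hey2 and Gja4 were above TPM 1 together in 6 cells, and Rbpj is the factor that binds DNA for the pathway. The RefSeq promoter table used here (GRCm38.p6) matched 8 of the 10 members, and Hey1 and Hes1 were not analysed in it. The 250 bases before the start are printed 5′ to 3′ on the gene's own strand, from chr2:119325534-119325783 (plus strand) for Dll4, chr10:30842784-30843033 (minus) for Hey2, chr5:53590096-53590345 (plus, the more upstream of the starts listed) for Rbpj and chr4:127314040-127314289 (minus) for Gja4. Capitals mark the core letters of an RBPJ match, TGGGAA or its reverse complement TTCCCA.
Dll4: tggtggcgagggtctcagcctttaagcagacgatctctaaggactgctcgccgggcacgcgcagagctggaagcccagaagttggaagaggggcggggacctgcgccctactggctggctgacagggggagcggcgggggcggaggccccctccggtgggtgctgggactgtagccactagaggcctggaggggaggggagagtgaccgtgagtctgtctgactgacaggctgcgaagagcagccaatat
Hey2: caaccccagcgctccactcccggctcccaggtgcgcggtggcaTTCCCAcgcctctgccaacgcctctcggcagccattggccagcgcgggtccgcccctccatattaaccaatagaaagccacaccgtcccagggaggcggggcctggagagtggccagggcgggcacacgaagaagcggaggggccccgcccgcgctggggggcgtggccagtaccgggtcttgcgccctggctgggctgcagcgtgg
Rbpj: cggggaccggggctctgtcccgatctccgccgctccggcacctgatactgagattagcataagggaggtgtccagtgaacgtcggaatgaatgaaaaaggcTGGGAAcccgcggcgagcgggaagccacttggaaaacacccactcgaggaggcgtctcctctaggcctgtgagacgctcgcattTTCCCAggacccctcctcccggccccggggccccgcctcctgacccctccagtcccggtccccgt
Gja4: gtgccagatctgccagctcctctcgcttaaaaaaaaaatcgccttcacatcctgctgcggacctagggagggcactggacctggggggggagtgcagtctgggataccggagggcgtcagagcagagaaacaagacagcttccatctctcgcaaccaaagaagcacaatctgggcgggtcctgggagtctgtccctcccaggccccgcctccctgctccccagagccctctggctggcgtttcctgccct

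An RBPJ core was found in the windows of Hey2 and Rbpj and so in 2 of 8 members, against 21.6% of 32851 promoters of the same length. In Hey2 it lay 207 to 202 bases before the start, and in Rbpj 149 to 144 and 65 to 60 bases before it. The RUNX core TGTGGT, searched on both strands, was in the window of 0 of 8 members against 14.0% of all promoters. The letters CACGNG, which HES and HEY repressors can bind, were found on either strand in Dll4 (195 to 190 bases before the start) and Jag1, against 23.5% of all promoters. The letters TATAAA were found in Efnb2 alone, 30 to 25 bases before the start on the reverse strand, against 12.4% of all promoters. No match of one motif overlapped a match of another. These are matches of letters in a short window, and no binding was measured in these cells.

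The 10 genes differed widely in presence, from Hes1 in 48 of 50 cells to Hey2 in 6. In all, 6 members, Hes1, Notch1, Notch4, Efnb2, Gja4 and Rbpj, were present in 25 cells or more, against 53.2% of all rows of the table. Their share of 6 in 10 is thus near that background and sets the members apart from other genes in neither direction. The median share of cells above TPM 1 was 61% over the 10 members and 52% over all rows. In a single cell, a median of 6 of the 10 members were present together, with a range of 0 to 9, and 35 cells held 4 to 7. The cell with 0 members was cell 4-6, the one with the fewest genes, and the cell with 9 was cell 2-18.

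**Figure D1:**
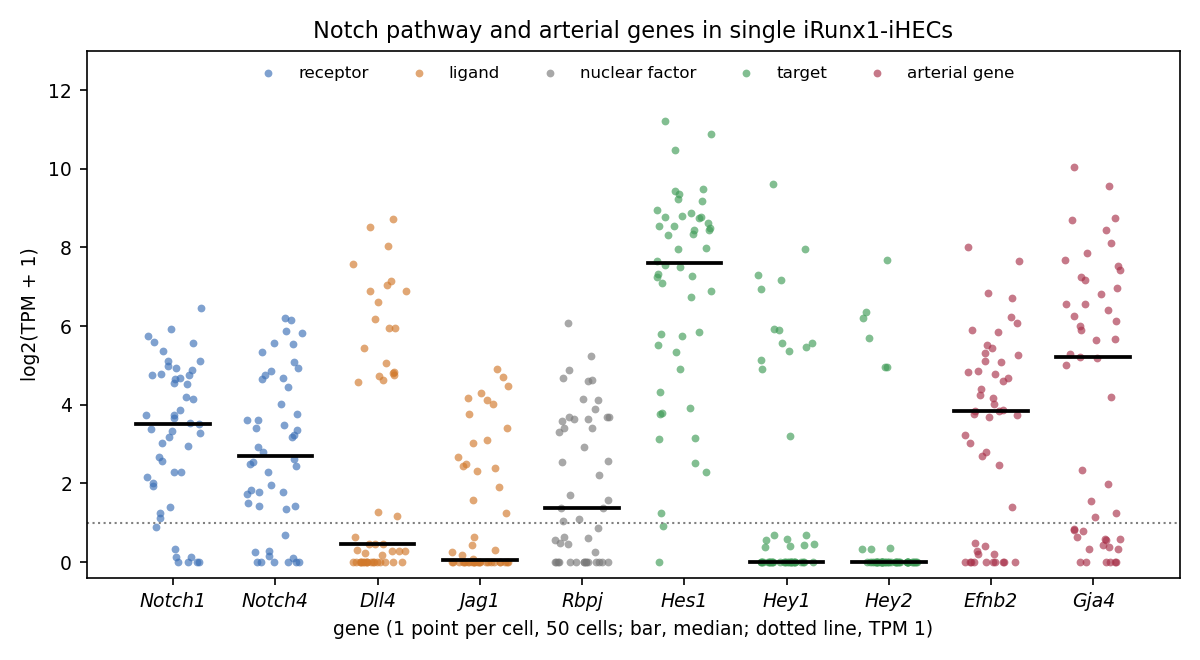
Level of each of the 10 genes as log2(TPM + 1), with 1 point per cell (50 cells), a bar at the median and a dotted line at TPM 1. Hes1 has the highest median, 192 TPM, while Dll4, Hey1 and Hey2 have most cells at or near 0 and a separate upper set of cells.

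Both receptors were present in most cells at low to moderate levels. Notch1, the receptor required for hemogenic endothelium in the embryo (GRCm38 chromosome 2, 26457903 to 26516663, minus strand), ran from 0 through a median of 10.5 to 86.5 TPM in cell 2-17. It was above TPM 1 in 42 cells, or 84% (exact 95% interval, 70.9% to 92.8%). Notch4, a receptor largely restricted to endothelium (chromosome 17, 34564268 to 34588503, plus strand), ran from 0 through 5.54 to 72.7 TPM in cell 3-6 and was above TPM 1 in 39 cells, or 78% (64.0% to 88.5%). Neither receptor was consistently the higher one, since Notch1 exceeded Notch4 in 27 cells and Notch4 exceeded Notch1 in 23. Both were present in 34 cells, where the product of their shares gives 32.8. Notch1 alone was in 8 cells, Notch4 alone in 5 and neither in 3.

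The other receptors of the family were rarer. Notch2 was above TPM 1 in 29 cells with a median of 1.93 TPM, and Notch3, a receptor of mural cells, in 13 with a median of 0. Notch1 exceeded Notch2 in 42 of 50 cells. A total of 3 cells had neither Notch1 nor Notch4 above TPM 1, namely cells 1-4, 3-2 and 4-6, and in each of them Notch2 was just above the level, at 1.1, 1.8 and 3.2 TPM. With all 4 receptors counted, every one of the 50 cells therefore had at least 1 (92.9% to 100%). Cell 3-2 had Hes1 at 348 TPM with Notch1 at 0.0982 and Notch4 at 0.618 TPM.

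Ligands were present in fewer cells, and Dll4 was close to a present-or-absent gene. Dll4, the delta-like ligand of arterial and tip endothelial cells (chromosome 2, 119325784 to 119335962, plus strand), passed TPM 1 in 22 cells, or 44% (30% to 58.7%), with a median over all cells of 0.375 TPM and a maximum of 421 TPM in cell 3-11. Of those 22 cells, 20 were above 10 TPM and 8 above 100 TPM, with a median of 61.2 TPM among them, while 18 cells were listed at 0. Jag1, a ligand of the jagged class that acts between endothelial and mural cells (chromosome 2, 137081456 to 137116644, minus strand), was lower where it was present. It was above TPM 1 in 19 cells, or 38% (24.7% to 52.8%), ran from 0 through 0.0327 to 28.8 TPM in cell 4-3, and had 0 cells above 100 TPM.

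Most ligand-bearing cells held 1 of these ligands only. Dll4 and Jag1 were together in 7 cells, against 8.36 from the product of their shares, and 34 cells held at least 1 of them. Jag2, a ligand outside the 10, was above TPM 1 in 30 cells with a median of 3.31 TPM, and in 9 cells it was the only one of the 3. Counting Jag2, 43 of 50 cells had a ligand (73.3% to 94.2%). Dll1, the ligand on the OP9-DL1 stroma, was listed at 0 in all 50 cells, and a count of 0 in 50 allows a share of cells above TPM 1 of up to 6% (3 counts of 50) or 7.11% (upper bound of the exact 95% interval).

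The transcript of the nuclear factor was sparse. Rbpj, the DNA-binding partner of the cut receptor (chromosome 5, 53466152 to 53657362, plus strand), passed TPM 1 in 28 cells, or 56% (41.3% to 70.0%), and ran from 0 through 1.6 to 66.1 TPM in cell 1-11. Of the 7 genes of the active complex, Rbpj among them, 5 (71.4%) were present in 25 cells or more, against 53.2% of all rows. Maml1 was in 29 cells, Crebbp in 32, Ep300 in 33 and Maml3 in 28, while the coactivators Maml2 and Kat2b were in 19 and 14. Of 8 genes of corepressors that can occupy Rbpj in the absence of signal, 7 (87.5%) were so present, against the same 53.2% of all rows. Hdac1, a histone deacetylase, was in all 50 cells at a median of 254 TPM, and the corepressor Ncor1 was in 49 at 73.5 TPM. Hdac3, another deacetylase, was in 42 cells at 59.5 TPM and Fhl1 in 38 at 50.3 TPM.

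The targets differed widely from each other. Hes1, a repressor that many tissues use downstream of Notch (chromosome 16, 30064384 to 30067796, plus strand), passed TPM 1 in 48 cells, or 96% (86.3% to 99.5%). Its level ran from 0 through a median of 192 to 2383 TPM in cell 4-3, and 33 cells were above 100 TPM. Hey1, a repressor of arterial endothelium (chromosome 3, 8663359 to 8667256, minus strand), passed TPM 1 in 14 cells, or 28% (16.2% to 42.5%), with a median of 0 and a maximum of 775 TPM in cell 3-11. That 1 cell held 42.7% of all Hey1 TPM. Hey2, its close relative with a role in arterial fate and in the heart (chromosome 10, 30832359 to 30842801, minus strand), passed TPM 1 in 6 cells, or 12% (4.53% to 24.3%), with a median of 0 and a maximum of 204 TPM in cell 3-13, which held 43.5% of the Hey2 total.

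Where a Hey gene was present it was not low. Among their positive cells, Hey1 started at 8.29 TPM with a median of 52.9 TPM, and Hey2 started at 29.9 TPM with a median of 61.8 TPM. Either Hey gene was present in 18 cells and both in 2. Hes1 exceeded Hey1 in 44 cells, with the reverse in 5, and exceeded Hey2 in 47, with the reverse in 2. In level, Hes1 was nearer to Nrarp, a target that feeds back to restrain the cut receptor, which was above TPM 1 in all 50 cells at a median of 168 TPM. Hes1 exceeded Nrarp in 26 cells and Nrarp exceeded Hes1 in 24. Over cells the pair did not move together, with a rho of -0.23 that was positive within none of the 4 first title numbers.

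Both arterial genes were present in most cells. Efnb2, the ephrin ligand that marks arterial against venous endothelium (chromosome 8, 8617434 to 8661242, minus strand), passed TPM 1 in 35 cells, or 70% (55.4% to 82.1%), and ran from 0 through 13.4 to 257 TPM in cell 4-1. Gja4, the gap junction protein connexin 37 of arterial endothelium (chromosome 4, 127311421 to 127314039, minus strand), passed TPM 1 in 33 cells, or 66% (51.2% to 78.8%), and ran from 0 through 35.9 to 1049 TPM in cell 1-3, with 14 cells above 100 TPM. Gja4 was the higher of the pair in 34 cells and Efnb2 in 15. Both were present in 25 cells, against 23.1 from the product of their shares, and 7 cells had neither.

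Other arterial genes ranged from widely present to nearly missing. Of 22 arterial genes with a row, 8 of the members among them, 12 (54.5%) were present in 25 cells or more, near the 53.2% of all rows. Sox18, an endothelial transcription factor, was in 48 cells at a median of 377 TPM, Acvrl1, a receptor of the BMP family, in 45 at 96.4 TPM, and Nrp1, a co-receptor for VEGF, in 41 at 43.2 TPM. The row 8430408G22Rik was above TPM 1 in 38 cells at 42.7 TPM. Unc5b in 21 cells, Mecom in 22 and Tmem100 in 18 lay between. Gja5 (connexin 40) and Bmx, which mark mature arteries, were above TPM 1 in 1 cell each, and the chemokine Cxcl12 in 2.

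Venous genes were also present in these cells. In all, 5 of 6 venous genes (83.3%) were present in 25 cells or more, against 53.2% of all rows, with Ephb4, the receptor of Efnb2, in 45 and Emcn, which is also on the pan-endothelial list, in 45, Flt4 in 44 and Aplnr in 38. Efnb2 and Ephb4 were together in 32 cells, against 31.5 from the product of their shares. Nr2f2, the transcription factor of venous fate that opposes Notch in endothelium, was the exception at 19 cells and a median of 0.202 TPM. Efnb2 exceeded Nr2f2 in 36 cells and Nr2f2 exceeded Efnb2 in 9. Efnb2 and Nr2f2 were together in 13 cells, against 13.3 from the product of their shares, so no tendency to avoid each other was visible.

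**Figure D2:**
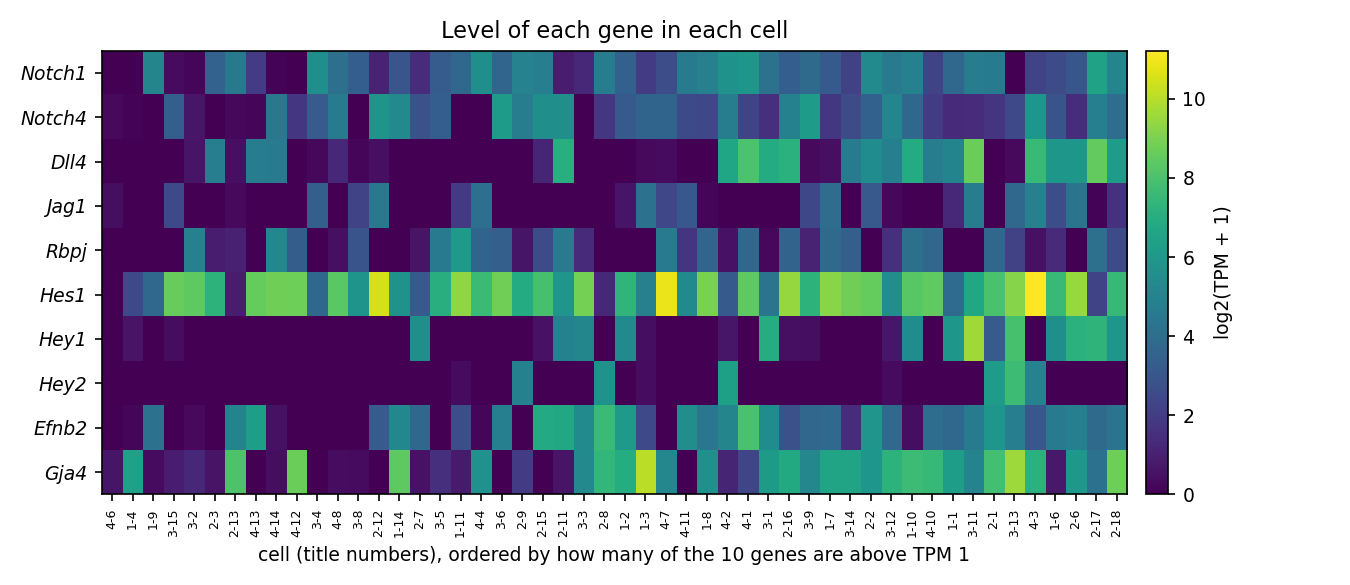
Level of the 10 genes (rows, colour as log2(TPM + 1)) in each of the 50 cells (columns, named by their 2 title numbers and ordered by how many of the 10 genes were above TPM 1, from 0 to 9). Hes1 is bright in most columns, while bright cells of Dll4, Hey1 and Hey2 are scattered. They lie mostly to the right, which ordering the cells by these same 10 genes favours.

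Along the order of presence, Hes1, Notch1, Notch4, Efnb2, Gja4, Rbpj, Dll4, Jag1, Hey1 and Hey2, the exact intervals of each neighbouring pair overlapped, which is no test of the difference between them. In the same 50 cells Hes1 was present without Notch1 in 7 and Notch1 without Hes1 in 1, while Hey1 was present without Hey2 in 12 and Hey2 without Hey1 in 4. The intervals of Hes1 at the top and Hey2 at the bottom did not overlap. The levels followed another order, since Gja4 had a higher median TPM than Notch1, Notch4 and Efnb2 but was present in fewer cells. The spread over cells as an SD on the log2(TPM + 1) scale was 3.31 for Gja4, 3.1 for Dll4 and 2.69 for Hes1, against 1.84 for Notch1 and 1.69 for Jag1.

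Presence differed over the first title numbers by shares that each rest on 11 to 14 cells. The share of cells above TPM 1 ran from 75% to 92.9% for Notch1, from 72.7% to 85.7% for Notch4 and from 91.7% to 100% for Hes1. Efnb2 varied from 50% to 85.7%, Dll4 ran from 27.3% to 58.3%, Rbpj from 45.5% to 69.2%, Jag1 from 28.6% to 46.2% and Gja4 from 58.3% to 72.7%. Hey1 was the most uneven member, with 4 of 11, 6 of 14, 4 of 13 and 0 of 12 cells over numbers 1 to 4. In the 12 cells of number 4 its highest value was 0.606 TPM, while Dll4 was present in 7 of these cells. Hey2 was above TPM 1 in 0 of the 11 cells of number 1. Whether these numbers mark plates, days or cultures is not given. Such differences cannot be told apart from a batch or from counting error in so few cells.

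Receptor, ligand and target were found in 1 cell in a share that depended on the level asked for. Notch1 or Notch4, Dll4 or Jag1, and a target among Hes1, Hey1 and Hey2 were above TPM 1 together in 34 cells, or 68% (53.3% to 80.5%), and in 54.5% to 83.3% of cells over the first title numbers. The share was 48% with TPM above 5 and 36% with TPM above 10. At TPM 1 the product of the 3 shares gives 30.7 cells, so the joint presence was little more than separate presence gives. Of the other cells, 12 had a receptor and a target without Dll4 or Jag1. With Rbpj also required, 20 cells remained, and with a Hey gene in place of any target, 12 cells. All of the 34 cells with a ligand thus also had a receptor and a target.

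**Figure D3:**
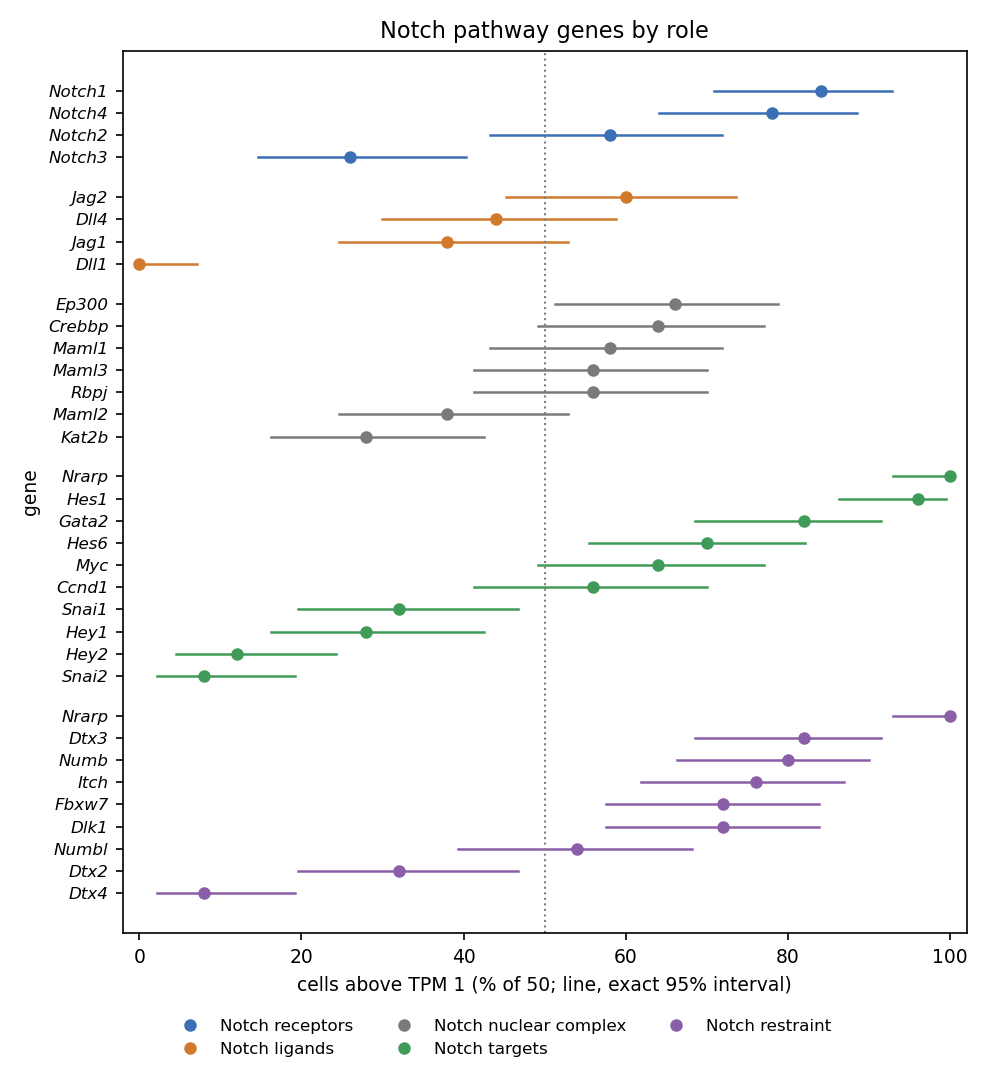
Share of the 50 cells above TPM 1 for receptors, ligands, nuclear complex, targets and restraining factors of the Notch pathway with a row in the table (points, with exact 95% intervals as lines, and a dotted line at 50%). Nrarp, which is on 2 lists and drawn in both, and Hes1 are at 100% and 96%, and Dll1 is at 0%.

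The rest of the pathway was broadly transcribed. Over lists of receptors, ligands, processing enzymes, nuclear partners, corepressors, restraining factors and targets, 39 of 58 genes with a row (67.2%) were present in 25 cells or more, and 35 of 50 (70%) without the members, against 53.2% of all rows. Of the genes that process or glycosylate the receptor 11 of 17 were so present, among them Mfng, a glycosyltransferase that modifies Notch, in 49 cells at a median of 223 TPM. The gamma-secretase subunits Psenen and Ncstn were in 49 and 47 cells at 187 and 103 TPM, and the protease Adam10 in 49 at 51.8 TPM. The ligands counted 1 of 4 and the receptors 3 of 4. The factors that restrain Notch counted 7 of 9, among them Numb in 40 cells, Dtx3 in 41 and Dlk1, a ligand-like protein without the activating domain, in 36. Of 10 genes with a row on the target list, 6 were present in 25 cells or more. Among them, Hes6, a relative of Hes1, was in 35 at 31.4 TPM. Gata2, a transcription factor of hemogenic endothelium, was in 41 at 20.7 TPM. Whether each listed gene responds to Notch in these cells was not tested.

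Co-expression over the 50 cells was weak. Across the 45 pairs of members the median Spearman rho was 0.083, against 0.045 over all 41436856 pairs of the 9104 genes above TPM 1 in at least 10 cells. That background leaves out genes as sparse as Hey2, and over the 36 pairs without Hey2 the median was 0.081 and 3 pairs reached a rho of 0.3. A total of 4 pairs (8.89%) reached a rho of 0.3 or more, against 4.46% of all pairs, and the range was -0.287 to 0.367. These are descriptions over cells that share the amplification chemistry and differ in genes detected, and in such sparse values a rho of this size on its own is no finding. With the number of genes per cell taken out by partial correlation, the members' median was 0.079, against 0.0065 over all pairs. It was 0.073 over the 36 pairs without Hey2. By this measure 4 pairs of members (8.89%) reached 0.3, against 2.62% of all pairs. These were not the same 4, since Hey1 and Efnb2 dropped out at 0.299 and Notch1 and Efnb2 came in at 0.322. In the negative direction, Notch1 and Hes1 stood at -0.36 and Jag1 and Rbpj at -0.31. The members' median fell to 0.028 when the 7 cells under 5000 genes were left out, and to 0.037 and 0.043 without the cells of first title number 3 or 4.

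**Figure D4:**
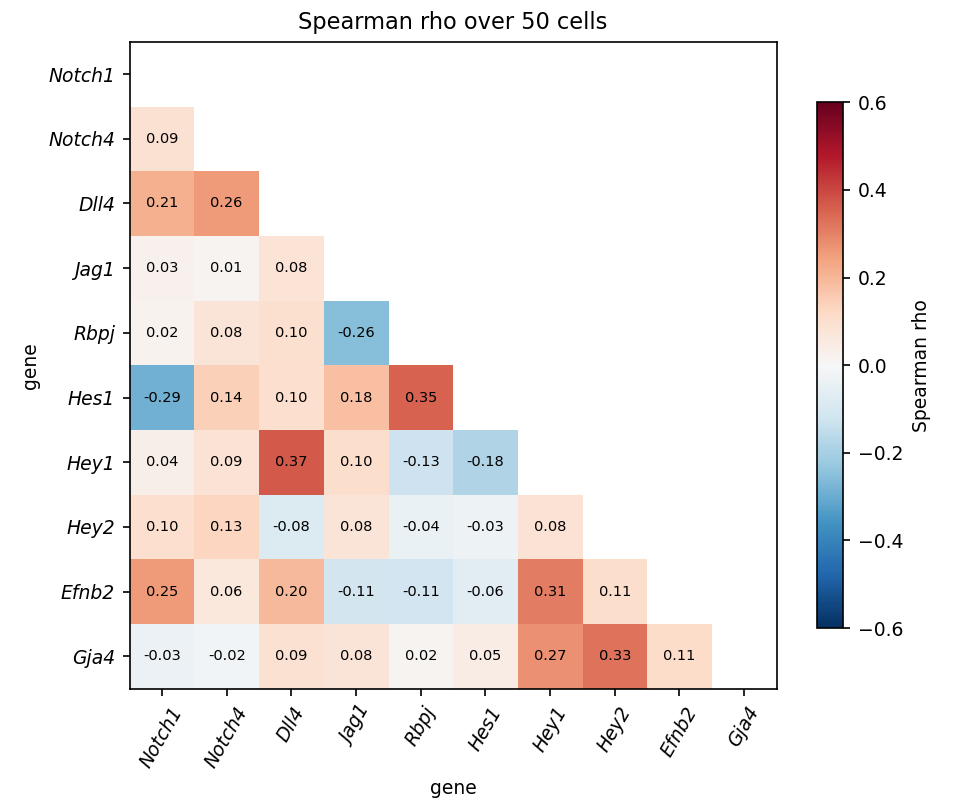
Spearman rho over 50 cells for each pair of the 10 genes (lower triangle, colour and printed value, from blue for negative to red for positive). In all, 4 pairs are at or above 0.3, led by Dll4 and Hey1 at 0.37, and the lowest is Notch1 and Hes1 at -0.29.

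The pair with the highest rho was ligand and target, Dll4 and Hey1, at 0.37. A total of 9 cells held both, against 6.16 from the product of their shares, with Dll4 alone in 13 and Hey1 alone in 5. Within first title numbers 1, 2 and 3 it was 0.65, 0.48 and 0.45. In number 4 no cell held Hey1 above TPM 1 and only cell 4-2 had a value above 0, so the rho there carries no weight. The correlation ran from 0.33 to 0.47 with each number left out in turn. Without the highest cell of each gene it was 0.32. Cell 3-11 held the highest value of both genes.

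**Figure D5:**
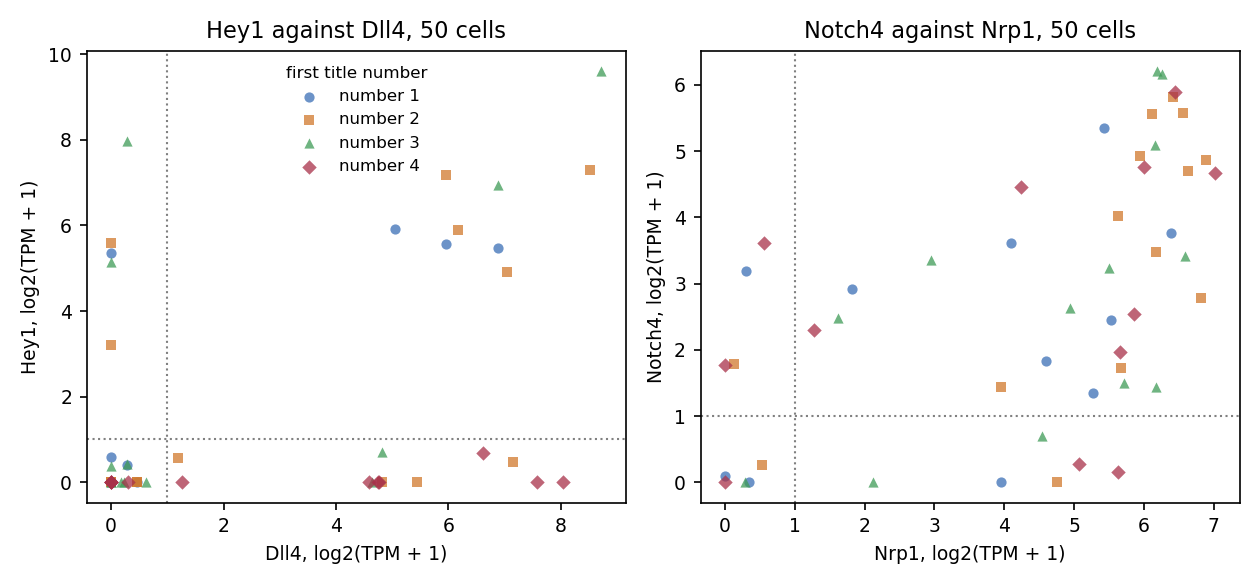
Hey1 against Dll4 (left) and Notch4 against the VEGF co-receptor Nrp1 (right) in 50 cells, both axes as log2(TPM + 1), with symbols for the first title number and dotted lines at TPM 1. In all, 9 cells lie above both lines for Dll4 and Hey1, none of them from number 4, and Notch4 rises with Nrp1 with a rho of 0.64.

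A further 3 pairs passed 0.3 with less support across the title numbers or cells. Hey2 and Gja4 had a rho of 0.33, with 0.32, 0.63 and 0.17 within numbers 2, 3 and 4 and no Hey2 above TPM 1 in number 1. All 6 Hey2 cells also held Gja4, against 3.96 from the product of shares. In cells 4-2 and 2-9 of these, Gja4 was near the level, at 1.21 and 2.96 TPM. The median of all cells with Gja4 above TPM 1 was 83.6 TPM. Without the highest cell of each gene the rho was 0.21. Hes1 and Rbpj had a rho of 0.35 that ran from -0.23 to 0.89 within the numbers, and was 0.16 to 0.59 with each number left out in turn, 0.27 without the 7 cells under 5000 genes and 0.36 without the highest cell of each gene. Hey1 and Efnb2 had a rho of 0.31, with -0.14, 0.11 and 0.65 within numbers 1, 2 and 3, and 0.19 to 0.36 with each number left out in turn, and 13 of 14 Hey1 cells held Efnb2, against 9.80 from the product of shares. It was 0.29 without cell 4-6, in which both genes were listed at 0, 0.36 without the 7 cells under 5000 genes and 0.34 without the highest cell of each gene.

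The receptors differed in their relation to Hes1, the most abundant target, by values that were not tested against each other. Notch1 and Hes1 had the lowest rho of all pairs, -0.29, with -0.78 to 0.29 within the first title numbers, where 1 of 4 was positive, and -0.36 with genes per cell taken out. Notch4 and Hes1 had a rho of 0.14, positive within all 4 numbers (0.0055 to 0.28). The 2 receptors had a rho of 0.09, the ligands Dll4 and Jag1 0.08, and the Hey genes 0.08 with each other, so genes of 1 role were not found to move together over cells. Hes1 and Hey1 had a rho of -0.18. With Nrarp, the target found in every cell, Notch1 had a rho of 0.30, with -0.099 to 0.42 within the numbers.

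The members were compared with Runx1, the gene that was induced. Over the 10 members the median rho with Runx1 was 0.011, from -0.29 for Notch4 to 0.19 for Rbpj, and 0 of 10 reached 0.3 in size, against 7.52% of 9103 genes, so for 10 genes the count was near the background. Notch4 was negative within all 4 first title numbers (-0.36 to -0.0046) and reached -0.33 with genes per cell taken out, and Rbpj positive in all 4 (0.016 to 0.51). Within number 2 the members' median was -0.31, against -0.046 to 0.029 in the other numbers. The cassette and the endogenous gene share the symbol, so the Runx1 values cannot be divided between them.

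Members also varied little with the number of genes detected, with a median rho of 0.13 against 0.20 over all genes. The count of members present per cell had a rho of 0.23 with the genes per cell. The cell division list had 3 of 12 genes (25%) in 25 cells or more, against 53.2% of all rows. Its highest genes by median were Cdk1, the mitotic kinase, in 47 cells at 73.1 TPM, Ube2c in 28, Ccnb1 in 25 and Cdc20 in 24. With the summed level of the list the median rho of the members was -0.057, with the lowest values at -0.30 for Notch4 and -0.24 for Hey2. Cdkn1b, an inhibitor of the cell cycle, had a median rho of 0.095 with them, from -0.25 for Hes1 to 0.28 for Notch1 and 0.30 for Efnb2. With genes per cell taken out the order changed, to 0.43 for Notch1, 0.31 for Notch4 and 0.26 for Efnb2. Of the other cell cycle inhibitors, Cdkn1a was in all 50 cells at a median of 779 TPM, Cdkn2d in 42 at 84.3 TPM and Cdkn1c in 1. With Cdkn1a the members' median rho was 0.030, from -0.21 for Hey2 to 0.34 for Notch1.

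Among all other genes, those most like each member by rho included some with a known vascular role. Notch4 was most like Nrp1, with a rho of 0.64 that stayed positive in each first title number (0.48 to 0.69), and then Dnaja3 and Ptprm, an endothelial receptor phosphatase. Dll4 was most like Lamb1, a laminin chain, at 0.59, and Nos3, the endothelial nitric oxide synthase, at 0.55, and then Stap2. Hey1 was most like Efna1, an ephrin ligand, at 0.60, with -0.22 to 0.92 within the numbers, of which number 4 had no cell with Hey1 above TPM 1, and then Wscd1 and Cxxc5. Rbpj had among its 3 nearest genes Ncstn, the gamma-secretase subunit, at 0.53, with 0.39 to 0.75 within the numbers, after 0610009O20Rik at 0.59 and Mkrn2 at 0.57.

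For the other members the nearest genes were of mixed kind. Notch1 was most like Med20, a subunit of the Mediator complex, at 0.55, followed by the kinase Rps6ka2 and Cltc, the clathrin heavy chain, both at 0.53. Jag1 was most like Parvb at 0.52, then B3galtl and Mynn, and Hes1 like Ndufs1, a subunit of respiratory complex I, at 0.54, then Eif5 and Agpat2. Efnb2 was most like Cxx1a at 0.56, then Fstl1 and Itga1, and Gja4 like Hltf at 0.55, then Sla2 and Orai1. Each of these 9 members had between 174 and 459 genes at a rho of 0.3 or more out of 9103, and Hey2, present in under 10 cells, was not compared in this way, so the nearest genes are the extremes of many comparisons and their values are descriptions.

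Of the genes of the sorted proteins, only Kit and Procr were compared with the members. A rho of 0.3 in size was reached by 1 of 10 members with Kit, against 498 of 9103 genes. With Procr it was 2 of 10, against 440 of 9103. With Sfpi1 it was 1 of 10 against 388, with Sox17 1 against 309 and with Nrp1 2 against 459. The values given here are thus the extremes of many comparisons and are descriptions. Efnb2 had a rho of 0.50 with Kit, the gene of c-kit, positive within every first title number (0.35 to 0.68). Dll4 had a rho of 0.37 with Procr, the gene of CD201 (0.24 to 0.71). Hes1 had one of -0.30 with Procr, and -0.27 with genes per cell taken out. The cells had been sorted for both proteins, so their range here is that left by the gate. Hes1 also had a rho of -0.31 with Sfpi1, the gene of the blood factor PU.1, negative in all 4 numbers (-0.59 to -0.17). It was -0.29 with genes per cell taken out. Notch4 had a rho of 0.36 with Sox17, a transcription factor of arterial and hemogenic endothelium, positive within all 4 (0.042 to 0.66). Dll4 also had a rho of 0.33 with Nrp1 (0.056 to 0.41).

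An overlapping gene may limit 2 of these values. At least 1 exon of Dll4 overlaps the span of Gm14207 on the opposite strand, which had a row with a median of 0 TPM. At least 1 exon of Notch1 overlaps the spans of 0610009E02Rik and Gm13568, which had no row. The exons of these partner genes were not examined. Whether strand was used in counting is not given, so reads of such partners cannot be told apart from those of Dll4 or Notch1.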

How the data were processed

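Single cells were amplified with a whole-transcriptome kit for polyA RNA and made into libraries. The deposited values are TPM, which the authors estimated with StringTie 1.3.4 after alignment to mm10 with HISAT2 2.1.0 (SAMtools 0.1.19 and bcl2fastq are also named in the submitters' processing notes). TPM keeps no depth, no molecular identifiers were named, and how the 11879 rows were selected is not given in the sources used here, so a value of 0 means only listed at 0. Columns summed to between 942975 and 970894 TPM, and no columns were identical.

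The members and all lists were chosen with earlier results of these data known. Presence was TPM above 1, with exact Clopper-Pearson 95% intervals. Spearman and partial Spearman correlations (given genes above TPM 1 per cell) were computed over 50 cells, for all pairs of members and, for the background, among genes above TPM 1 in at least 10 cells (which leaves out Hey2), within each first title number and with each number left out. The code was tested on simulated data. Genes named were all members, Runx1, Cdkn1b, from each list the 4 genes with the highest median TPM and those in no cell, and the 3 genes most like each member, and list genes named beyond these (such as Gja5, Bmx, Cxcl12, Nr2f2, Unc5b, Mecom, Maml2, Kat2b, Tmem100, Sox17, Kit, Procr and Sfpi1) were chosen after their values were seen. SDs and figures are on the log2(TPM + 1) scale. Alternatives varied the TPM level, the correlation, the pseudocount (1 or 0.1), the cells and a rescaling without 86 ribosomal protein rows. Coordinates are from GENCODE M21 (GRCm38), promoters from RefSeq. Python 3.11.15, pandas 2.3.3, numpy 2.4.6, scipy 1.17.1 and matplotlib 3.10.9 were used.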

Additional observations from a re-analysis of the deposited data

How the results depend on the processing

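Of 7 summary results, 2 of the 3 on presence moved with the TPM level. The median share of cells over the members was 61% above TPM 1, 75% above TPM 0 and 39% above TPM 10. Cells with a receptor, a ligand and a target together made up 68%, against 48% above TPM 5 and 36% above TPM 10. The count of pathway genes in at least 25 cells stayed within 1.5 times its value at every level, from 26 to 44. The median rho over pairs of members, 0.083, was 0.046 with values at or below TPM 1 set to 0, 0.037 without first title number 3, 0.043 without number 4 and 0.028 without the 7 cells under 5000 genes. Cell 4-6 was left out as an alternative chosen after seeing the data, and none of the 7 results moved beyond its limit. The causes of these shifts were not tested. The shares of single members stayed within their intervals for 10 of 10 members under each first title number left out and the rescaling, while 3 moved above TPM 0 (Dll4, Hey1 and Gja4), 4 above TPM 5 (Notch1, Notch4, Jag1 and Rbpj), 5 above TPM 10 (the same 4 and Hes1) and 1 without the cells under 5000 genes (Hes1). No paired analysis was possible because the labels give 1 group. Counting 50 cells of 1 sample limits every share, and unknown depth limits every 0.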
